A study of Mus musculus with 6 samples.

Results

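The mouse major histocompatibility complex (MHC) is called H2, and its genes encode the class I and class II molecules that carry peptides to the cell surface, with part of the machinery that loads them. The H2 module described here was made of 47 of the 52550 mouse genes in the deposited table. A gene was taken when its symbol began with H2- or was one of B2m, Tap1, Tap2, Tapbp, Cd74 and Ciita, and rows named or described as pseudogenes were left out. The rule reads symbols and descriptions and no expression value. Of the 47 members, 44 lie on chromosome 17, whereas B2m lies on chromosome 2, Ciita on chromosome 16 and Cd74 on chromosome 18. The rule left out 4 pseudogene rows, and GENCODE still annotates 7 of the members (H2-Q3, H2-Q5, H2-T10, H2-K2, H2-Bl, H2-Pa and H2-Pb) as a type of pseudogene.

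The study followed FLExDUX4 mice, a model of facioscapulohumeral muscular dystrophy (FSHD). These mice are hemizygous for an inverted human DUX4 transgene in the Rosa26 locus, which leaks DUX4 at a very low level without any Cre recombinase, and wild-type (WT) littermates were the controls. The labels give quadriceps of males 13 weeks old with 3 mice per genotype, whereas the study's methods give triceps at 2 months, so the muscle and the age cannot be settled here. RNA was sequenced from its 3′ end with QuantSeq, in which a transcript yields about 1 read, so counts were not divided by gene length. The table holds the summed count of each genotype, with 13110125 counts on genes for FLExDUX4 and 18367364 for WT. Because 1 total stands for each genotype, no difference below has a replicate check and no p-value is given. The DUX4 transgene was not measured in this table, so the genotype labels were not checked by their target.

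Class I molecules consist of a heavy chain and the light chain beta-2-microglobulin, are made by nearly all nucleated cells, and show peptides cut by the proteasome to CD8+ T cells. Class II molecules are pairs of an alpha and a beta chain that dendritic cells, macrophages and B cells use to show endosomal peptides to CD4+ T cells, and resting muscle fibers are known to carry little MHC of either class. Interferon-gamma raises both classes, through NLRC5 for class I and through CIITA for class II. DUX4 is a transcription factor of the early embryo, and its expression in tumors is known for low class I presentation.

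The sequences upstream of 5 members of both classes are shown because they hold the letters through which both classes are known to be induced. They are the 200 bases before the RefSeq gene start (GRCm38.p6), written 5′ to 3′ on the strand of the gene. Capitals mark the Y box (CTGATTGG or its reverse complement CCAATCAG), bound by NF-Y, the interferon-stimulated response element (TTTCACTTC), bound by interferon regulatory factors, and enhancer A (GGGATTCCC), bound by NF-kappa-B. The windows are H2-K1 at chr17:34000348-34000547 (minus strand), H2-D1 at chr17:35262894-35263093 (plus), H2-M3 at chr17:37270034-37270233 (plus), H2-Aa at chr17:34287824-34288023 (minus) and H2-Eb1 at chr17:34305667-34305866 (plus).
H2-K1: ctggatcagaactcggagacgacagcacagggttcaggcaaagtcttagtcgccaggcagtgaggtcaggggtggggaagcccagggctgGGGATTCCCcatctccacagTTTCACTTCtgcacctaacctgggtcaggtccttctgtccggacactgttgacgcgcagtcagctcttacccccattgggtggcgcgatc
H2-D1: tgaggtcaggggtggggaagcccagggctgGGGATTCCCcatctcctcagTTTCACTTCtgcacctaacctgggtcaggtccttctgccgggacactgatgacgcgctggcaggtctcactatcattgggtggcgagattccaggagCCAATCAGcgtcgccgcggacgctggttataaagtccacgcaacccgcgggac
H2-M3: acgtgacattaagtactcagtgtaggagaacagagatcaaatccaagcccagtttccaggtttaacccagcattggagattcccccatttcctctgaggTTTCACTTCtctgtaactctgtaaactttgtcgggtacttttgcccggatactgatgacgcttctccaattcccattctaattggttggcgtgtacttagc
H2-Aa: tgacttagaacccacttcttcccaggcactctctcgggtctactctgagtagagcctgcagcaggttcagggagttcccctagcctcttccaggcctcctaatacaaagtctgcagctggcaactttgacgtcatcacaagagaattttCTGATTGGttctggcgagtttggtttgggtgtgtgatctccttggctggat
H2-Eb1: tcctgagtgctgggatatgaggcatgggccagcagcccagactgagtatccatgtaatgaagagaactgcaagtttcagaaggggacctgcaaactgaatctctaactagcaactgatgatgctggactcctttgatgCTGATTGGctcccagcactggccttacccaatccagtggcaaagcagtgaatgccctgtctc

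The 3 motifs were searched on both strands in the 250 bases before the start of the 34 members that have an entry in the RefSeq table, and of all 27025 genes there. The response element was found in 7 of the 34 members, all class I heavy chain genes (H2-K1, H2-D1, H2-M3, H2-Q7, H2-Q4, H2-Q10 and H2-Q6), and in 0.477% of all genes. Enhancer A was found in 4 of these 7 (H2-K1, H2-D1, H2-Q7 and H2-Q6) and in 0.352% of all genes. The Y box was found in 17 of the 34 members, against 4.43% of all genes, and no match overlapped another motif. In the class II genes it lay in the strand of the gene. It began 51 bases before the start of H2-Aa, 62 before H2-Eb1, 103 before H2-Eb2 and 46 before H2-Oa. In H2-D1 it lay 53 bases before the start on the opposite strand. The letters were chosen after the sequences had been read, so these counts are a description. A match is not a site in use. The deposited start of H2-D1 (35262730) lies upstream of the RefSeq start, so the window printed for it falls inside the deposited gene, and the last bases of the H2-M3 window also lie inside its deposited gene (start 37270220).

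Muscle of both genotypes held MHC transcripts of both classes, and the module as a whole was at about the same level in each. In all, 31 of the 47 members had at least 1 count, and the other 16 had 0 in both totals. The members summed to 5609 counts in FLExDUX4 and 7490 in WT, or 432 and 404 CPM. CPM here is a count per 1000000 counts of a total scaled with edgeR's TMM method, which left the 13396 genes compared at a median log2 ratio of -0.001. On this scale the summed module had a log2 ratio, FLExDUX4 over WT, of 0.10 with a 95% interval of 0.05 to 0.15 (Clopper-Pearson), which covers counting error only. With spike-in RNAs (ERCC and SIRV) as the scale, every ratio shifted by -0.28, and the module came to -0.18 (interval -0.23 to -0.13). The sign of the summed difference thus depended on the scale, and its size was under a 1.5-fold change on both. Ratios below are on the TMM scale unless the spike-in scale is named.

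A filter on low counts (edgeR's filterByExpr) kept 17 of the 47 members for comparison. With 1 total per genotype, reaching its cutoff in either total is enough, so a gene can be kept through the total where it is higher. A gene was counted as higher or lower when its ratio was at least 1.5-fold and its counting interval excluded 0. Of all genes compared, 20.1% passed this rule in either direction, 9.93% higher and 10.2% lower. Of the 17 members, 1 was higher (H2-M3), 3 were lower (Tap1, H2-T22 and H2-DMb1) and 13 did not pass, so the share past the rule, 23.5%, lay near that of all genes. The rule passes many genes of few counts. Of genes with 10 to 99 counts over both totals, 38.0% passed it (18.0% higher and 20.0% lower), against 12.2% of genes with at least 100 counts (6.35% higher and 5.83% lower). Of the members, 3 of the 7 kept with 10 to 99 counts passed and 1 of the 10 with at least 100 counts. The 4 members with the most counts (B2m, H2-K1, H2-D1 and Tapbp) did not pass. The median log2 ratio of the 17 members was 0.07, with 10 above 0 and 7 below. On the spike-in scale their median was -0.21, against -0.28 for all genes, and only 4 of the 17 (H2-M3, H2-Q7, H2-Eb1 and Cd74) stayed above 0.

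**Figure D1:**
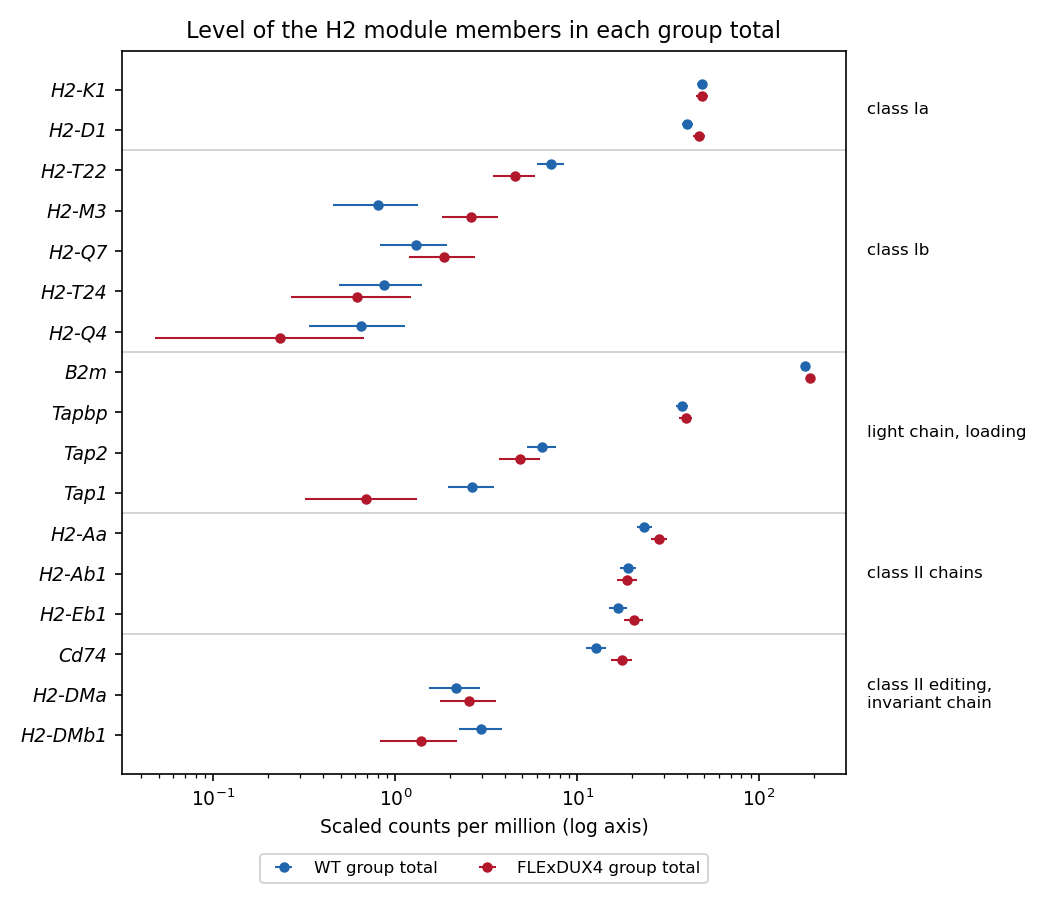
Level of the 17 members kept by the filter in the FLExDUX4 total (red) and the WT total (blue), in CPM on a log axis, grouped by role. Bars are 95% counting intervals. B2m is highest in both at 190 and 178 CPM, and the largest gaps between the totals are among members under 10 CPM (Tap1, H2-M3 and H2-Q4).

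The classical class I (class Ia) heavy chains present peptides to CD8+ T cells, and both of those in the table were well measured. H2-K1 (chr17:33996017-34000347, minus strand) had 631 counts in FLExDUX4 and 902 in WT, which is 48.6 CPM in each. Its log2 ratio was 0.00 (interval -0.15 to 0.15). H2-D1 (chr17:35262730-35267499, plus strand) had 608 and 748 counts, or 46.9 and 40.3 CPM. Its ratio of 0.22 (0.06 to 0.37) was above the counting error and below the 1.5-fold rule. On the spike-in scale the values were -0.27 for H2-K1 and -0.06 for H2-D1. H2-K1 made up 50.9% of the counts of the pair in FLExDUX4 (interval 48.1% to 53.7%) and 54.7% in WT (52.2% to 57.1%), and these intervals overlap. A share within 1 total does not depend on the scaling. Here and below, overlap of such intervals does not show that the shares are equal, and no difference of shares was tested. Together the pair gave 89.6% of all class I heavy chain counts in FLExDUX4 and 88.0% in WT.

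The nonclassical class I (class Ib) heavy chains, the H2-Q, H2-T and H2-M genes, were far lower, and the members that passed the rule went in both directions. Of these 25 genes, 12 had a count and 5 were kept. H2-M3, which presents N-formylated peptides of bacteria and mitochondria, had 34 counts in FLExDUX4 and 15 in WT, or 2.62 and 0.808 CPM. It was 3.18-fold higher in FLExDUX4, with a log2 ratio of 1.67 (0.78 to 2.68) and of 1.39 on the spike-in scale. H2-M3 (chr17:37270220-37274484, plus strand) overlaps no other annotated gene, and none of the 75-base windows in the last 500 bases of its transcripts occurs in another gene. Its difference rests on 49 counts in all, in a range of counts where 18.0% of all genes were higher by the same rule.

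H2-T22, whose product is a ligand of gamma-delta T cells and needs no peptide, had 59 counts in FLExDUX4 and 133 in WT, or 4.55 and 7.17 CPM. It was 1.57-fold lower, with a log2 ratio of -0.65 (-1.12 to -0.20) and of -0.93 on the spike-in scale. H2-T22 (chr17:36037128-36042747, minus strand) shares 39.0% of its transcript-end windows with H2-T10, so reads may be split or lost between these genes, and it lies within the antisense gene A930015D03Rik. Whether the authors counted by strand is not given in the sources used here. H2-T10 had 0 counts in FLExDUX4 and 2 in WT.

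The other class Ib members kept did not pass the rule. H2-Q7, which makes a protein anchored in the membrane by a lipid, had 24 counts in each total and a ratio of 0.52 (-0.36 to 1.40). H2-T24 had 8 counts in FLExDUX4 and 16 in WT with a ratio of -0.44 (-1.92 to 0.82). H2-Q4 had 3 and 12 counts with a ratio of -1.32 (-3.95 to 0.41), and its interval spans a lower and a higher level. Neither H2-T24 nor H2-Q4 was compared where each total needed at least 10 counts.

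Among members too low for the filter, some were found in 1 total alone. For these, a fold was taken against a floor of 3 counts in the total at 0, and it leaves out the counting error of the other total, with which the bound is smaller. H2-Q5 had 14 counts in FLExDUX4 and 0 in WT, at least 6.68-fold higher against the floor, and the counting interval of its log2 ratio began at 2.25. It shares 21.1% of its end windows with other genes, H2-Q7 before all. H2-T23, which encodes Qa-1, the ligand of the inhibitory receptor CD94/NKG2A, had 0 counts in FLExDUX4 and 10 in WT, at least 2.33-fold lower against the floor, with an interval that ended at -0.65. Of its end windows, 20.0% occur in other genes. H2-Q10, known as a secreted class I molecule of liver, had 0 and 7 counts, at least 1.63-fold lower against the floor, with an interval that ended at -0.01 and so reached almost to no difference. The remaining class Ib members with counts had 5 or fewer in all (H2-Q6 with 1 in FLExDUX4 and 4 in WT, H2-M2 with 0 and 2, and H2-M5 with 1 and 0). The 13 class Ib members at 0 in both totals include H2-T3, H2-Q1, H2-Q2 and the H2-M10 genes, which are known from the sensory cells of the vomeronasal organ.

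Summed by series, the H2-T genes had 67 counts in FLExDUX4 and 161 in WT, a log2 ratio of -0.74 (-1.18 to -0.33). Most of these counts were those of H2-T22 (59 and 133). The H2-M genes had 35 and 17 counts, with a ratio of 1.54 (0.68 to 2.49) that came almost wholly from H2-M3. The H2-Q genes had 42 and 47 counts with a ratio of 0.36 (-0.28 to 0.99). All class Ib genes together had 144 and 225 counts and a ratio of -0.13 (-0.44 to 0.18), which on the spike-in scale was -0.40 (-0.72 to -0.10).

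The light chain was the most abundant member. B2m (chr2:122147686-122153083, plus strand), the light chain of all class I molecules, had 2465 counts in FLExDUX4 and 3307 in WT, or 190 and 178 CPM. Its log2 ratio was 0.09 (0.02 to 0.17), and -0.18 on the spike-in scale. It gave 43.9% of all counts of the module in FLExDUX4 (42.6% to 45.3%) and 44.2% in WT (43.0% to 45.3%). For each heavy chain count there were 1.78 B2m counts in FLExDUX4 and 1.76 in WT, so light and heavy chain stood in nearly the same proportion in both genotypes.

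Of the loading genes, tapasin was level and the transporter genes were at lower values in FLExDUX4. Tapbp, which encodes tapasin, the bridge between class I molecules and the peptide transporter, had 512 counts in FLExDUX4 and 699 in WT, or 39.5 and 37.7 CPM. Its ratio was 0.07 (-0.10 to 0.23). Tap1 and Tap2 encode the subunits of the transporter that moves peptides from the cytosol into the endoplasmic reticulum. Tap1 (chr17:34187553-34197225, plus strand) had 9 counts in FLExDUX4 and 49 in WT, or 0.694 and 2.64 CPM. It was 3.64-fold lower, with a log2 ratio of -1.86 (-3.14 to -0.89) and of -2.14 on the spike-in scale. With 9 counts in FLExDUX4, Tap1 was not compared where each total needed at least 10 counts. Tap2 had 63 and 119 counts, or 4.86 and 6.41 CPM, and its ratio of -0.40 (-0.87 to 0.05) did not pass the rule. On the spike-in scale Tap2 came to -0.67 and did pass it.

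Tap1 made up 12.5% of the counts of the transporter pair in FLExDUX4 (5.88% to 22.41%) and 29.2% in WT (22.42% to 36.7%). These intervals lie just apart. Summed, the pair had 72 counts in FLExDUX4 and 168 in WT, a ratio of -0.70 (-1.13 to -0.30). Neither gene shares a transcript-end window with another gene, but Tap1 overlaps Psmb9 on the opposite strand. Psmb9, a catalytic subunit of the immunoproteasome, had 69 and 70 counts and a ratio of 0.50, and did not pass.

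**Figure D2:**
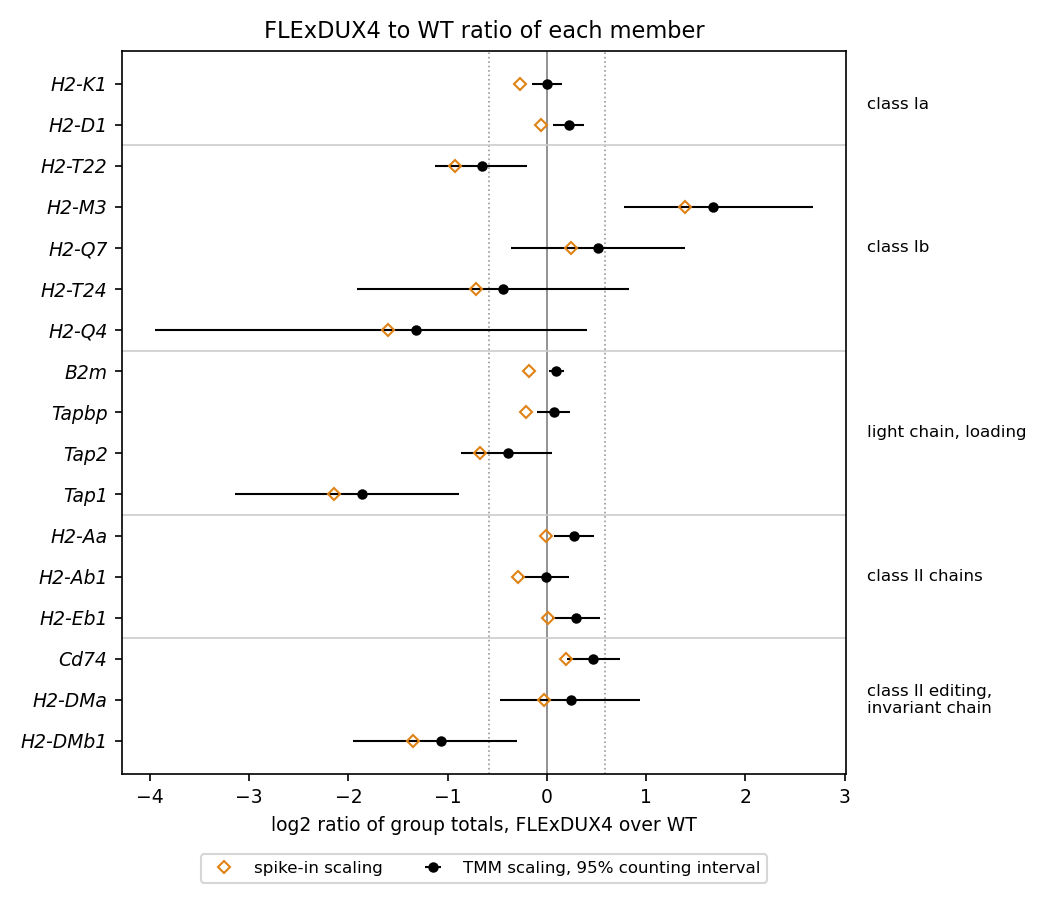
The log2 ratio of the FLExDUX4 to the WT total for each of the 17 members kept, on the TMM scale (black, with 95% counting intervals) and on the spike-in scale (orange diamonds). Dotted lines mark a 1.5-fold difference. H2-M3 lies to the right at 1.67 and Tap1, H2-DMb1 and H2-T22 to the left at -1.86, -1.07 and -0.65, whereas the members of most counts lie near 0.

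The class II chains were all within the fold rule. H2-Aa and H2-Ab1 encode the alpha and beta chain of I-A, and H2-Eb1 the beta chain of I-E. H2-Aa (chr17:34282744-34287823, minus strand) had 367 counts in FLExDUX4 and 435 in WT, or 28.3 and 23.4 CPM, with a ratio of 0.27 (0.07 to 0.47). H2-Ab1 had 245 and 354 counts, or 18.9 and 19.1 CPM, with a ratio of -0.01 (-0.26 to 0.22). The alpha chain took 60.0% of the counts of the I-A pair in FLExDUX4 (56.0% to 63.9%) and 55.1% in WT (51.6% to 58.6%), and these intervals overlap.

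H2-Eb1 had 266 counts in FLExDUX4 and 311 in WT, or 20.5 and 16.8 CPM, with a ratio of 0.29 (0.05 to 0.53). Mice of the C57BL/6 haplotype carry the I-E alpha chain as a pseudogene, and its row, H2-Ea-ps, was at 0 in both totals. H2-Eb2 had 2 counts in each. Summed, the class II chains had 880 and 1102 counts and a ratio of 0.19 (0.06 to 0.32), which on the spike-in scale was -0.08 (-0.21 to 0.04). Of the counts of class I heavy and class II chains together, class II took 38.9% in FLExDUX4 (36.9% to 40.9%) and 37.0% in WT (35.3% to 38.8%).

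Cd74, the invariant chain that fills the class II groove until the endosome, had 228 counts in FLExDUX4 and 236 in WT, or 17.6 and 12.7 CPM. Its log2 ratio of 0.47 (0.20 to 0.74) was the highest of the members with at least 100 counts, and was under the 1.5-fold rule. On the spike-in scale it was 0.19 (-0.08 to 0.46). Cd74 took 20.6% of the counts of Cd74 and the class II chains in FLExDUX4 (18.2% to 23.1%) and 17.6% in WT (15.6% to 19.8%), again with overlapping intervals.

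H2-DM is the editor that trades the remnant of the invariant chain for other peptides, and its genes gave unequal values. H2-DMa, the alpha chain, had 33 counts in FLExDUX4 and 40 in WT, with a ratio of 0.24 (-0.47 to 0.94). H2-DMb1 (chr17:34153072-34160230, plus strand), a beta chain, had 18 and 55 counts, or 1.39 and 2.96 CPM, and was lower with a ratio of -1.07 (-1.95 to -0.30). H2-DMb2, the other beta chain, had 5 and 3 counts. Of its end windows, H2-DMb1 shares 15.7% with H2-DMb2, so these reads may be split between them. The summed H2-DM genes had 56 and 98 counts and a ratio of -0.29 (-0.79 to 0.20), which did not pass. H2-DMa made up 64.7% of the H2-DMa and H2-DMb1 counts in FLExDUX4 (50.1% to 77.6%) and 42.1% in WT (32.0% to 52.7%). These intervals overlap, which does not show equal shares, and the difference was not tested.

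The remaining members had almost no counts. Ciita, the master switch of class II transcription, had 0 counts in FLExDUX4 and 2 in WT, which is too few to compare at this depth. H2-Oa and H2-Ob, which encode the inhibitor of H2-DM, had 0 and 1 and 3 and 1 counts. H2-Ke6 is a gene of the H2 region that encodes a steroid dehydrogenase and no MHC chain. It had 7 counts in FLExDUX4 and 0 in WT, at least 3.34-fold higher against the floor of 3 counts (the interval of its log2 ratio began at 1.04), and shares 51.4% of its end windows with the overlapping gene Gm20427. H2-K2 had 3 and 1 counts. These genes with H2-Bl, H2-Pa and H2-Pb, which were at 0, are the other H2- symbols, and they summed to 10 counts in FLExDUX4 and 1 in WT, a ratio of 3.32 with a wide interval (1.02 to 9.28).

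**Figure D3:**
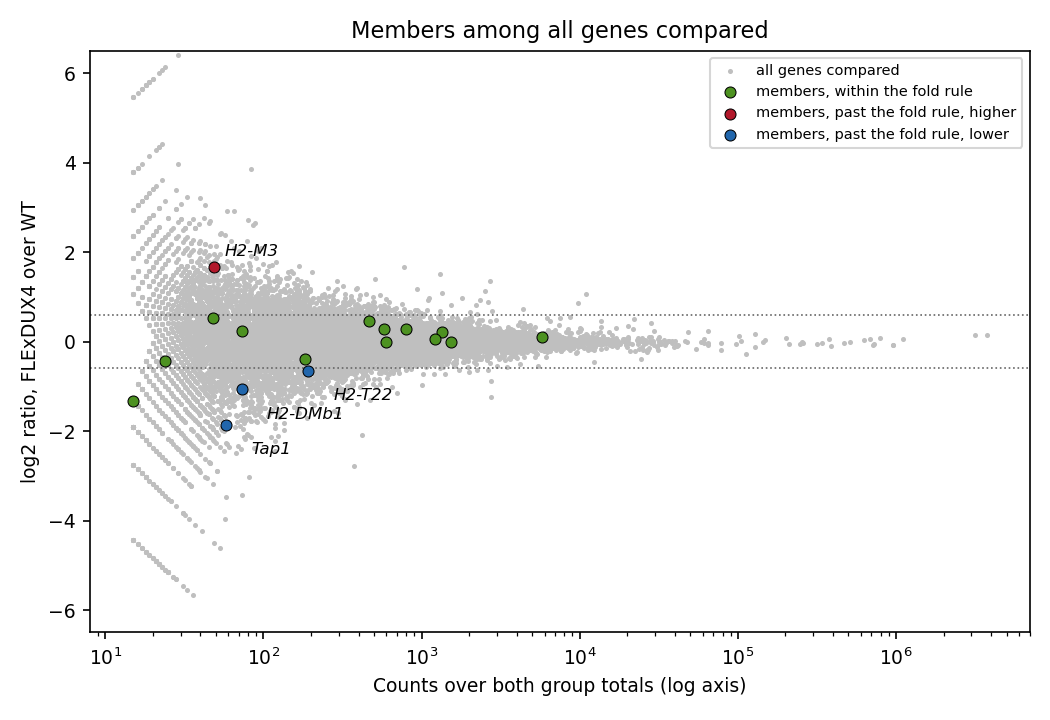
Each of the 13396 genes compared (grey) by its counts over both totals (log axis) and its log2 ratio of FLExDUX4 to WT, with the 17 members in color and dotted lines at a 1.5-fold difference. The plot leaves out 1 gene beyond its range. The spread of all genes widens toward low counts, and H2-M3, Tap1 and H2-DMb1 lie under 100 counts, where it is widest, and H2-T22 at 192 counts, whereas the 4 members with the most counts lie close to 0.

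The antigen presentation genes outside the module passed the rule in both directions. Of a list of 41 such genes, 37 were kept, 4 were at 0 in both totals (Ifng, Azgp1, Cd1d2 and Mill1), 3 were higher, 2 were lower, and the median ratio was 0.12. All 5 were among the 32 genes of the list with at least 100 counts, a share of 15.6% that lay near the 12.2% of all genes in that range. The lower genes both belong to the immunoproteasome and its activator, which cut peptides for class I. Psme2, a subunit of the PA28 activator, had 79 counts in FLExDUX4 and 236 in WT with a ratio of -1.06 (-1.45 to -0.69). Psmb8, a catalytic subunit encoded beside Tap1, had 32 and 96 counts with a ratio of -1.05 (-1.69 to -0.48). The other genes of that list of 5 were within the rule, Psme1 at 0.06, Psmb10 at -0.03 and Psmb9 at 0.50.

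The higher genes were Ifi30, Rfx5 and Tapbpl. Ifi30, a thiol reductase that unfolds antigens in the endosome, had 134 counts in FLExDUX4 and 122 in WT with a ratio of 0.65 (0.29 to 1.02). Rfx5, a subunit of the factor that binds the X box of class II promoters, had 70 and 64 counts with a ratio of 0.64. Tapbpl, a tapasin relative that edits class I peptides, had 54 and 51 counts with a ratio of 0.60 (0.02 to 1.18), just over the 1.5-fold threshold, and did not pass under upper-quartile scaling, with gene totals as the scale, or where each total needed at least 10 counts. On the spike-in scale none of these 3 passed the rule, at 0.38, 0.37 and 0.32, whereas Psme2 and Psmb8 stayed lower at -1.33 and -1.33.

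The 4 pathway genes with the most counts did not pass the rule. They were the kinase Jak1 at -0.03 (2807 counts in FLExDUX4 and 4102 in WT), the chaperones Calr at -0.04 (1747 and 2570) and Canx at 0.28 (1088 and 1281), and the endosomal protease Ctsb at 0.20 (1725 and 2149). None of the 9 genes kept for class I and interferon-gamma transcription passed, with a median of -0.02, and Ifng itself was at 0. Of the 7 genes of the class II transcription complex, which include the NF-Y subunits, only Rfx5 passed. None of the 6 class I-like genes kept outside H2, such as Fcgrt, passed.

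Marker genes of the cell types that carry MHC were compared beside the module, since in bulk muscle fewer cells of a type and less RNA per cell cannot be told apart. Both totals were muscle by the markers: all 12 fiber markers were kept, such as Acta1, Myh4 and Tnnt3, and they summed to 137816 CPM in FLExDUX4 and 138569 in WT with a ratio of -0.01. The 11 macrophage markers, such as Lyz2, Csf1r and Mrc1, summed to 125 and 119 CPM with a ratio of 0.07 (-0.02 to 0.16). Their median was -0.11, with 7 of the 11 below 0, and 2 were higher (Mertk at 1.17 and Cd163 at 0.92) and 2 lower (C1qb at -0.62 and Cd14 at -0.83). Of the 8 dendritic cell markers, 3 were kept and 3 (Itgax, Clec9a and Xcr1) were at 0 in both, and the list summed to 13.1 and 11.1 CPM with a ratio of 0.24 (-0.06 to 0.54). The 7 B cell markers summed to 38.5 and 34.5 CPM with a ratio of 0.16 (-0.01 to 0.33), nearly all of it Ighm, whereas Cd79a was at 0 and Igkc, with 14 and 6 counts, was higher at 1.67. The 7 leukocyte markers summed to 18.8 and 21.3 CPM with a ratio of -0.18 (-0.42 to 0.05).

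The lists of other cell types were compared in the same way. The 5 neutrophil markers had 25 counts in FLExDUX4 and 150 in WT, a ratio of -2.04 (-2.74 to -1.45), from S100a9 (13 and 105) and S100a8 (11 and 37), with Ly6g and Elane at 0 in both. The 10 T and NK cell markers had only 6 and 5 counts, with Cd3d, Cd3g, Gzma, Ncr1 and Nkg7 at 0. The 9 endothelial markers had a ratio of -0.14 (-0.20 to -0.07), with Cldn5 (-1.34) and Tek (-0.63) lower and Vwf (0.71) higher. Of the leukocyte markers, Cd53 was lower at -1.07. The 6 fibroblast markers had a ratio of 0.19 (0.17 to 0.22) and the 5 red cell markers one of 0.33 (0.30 to 0.36). The part of any cell type in the differences of the members and pathway genes was not tested.

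**Figure D4:**
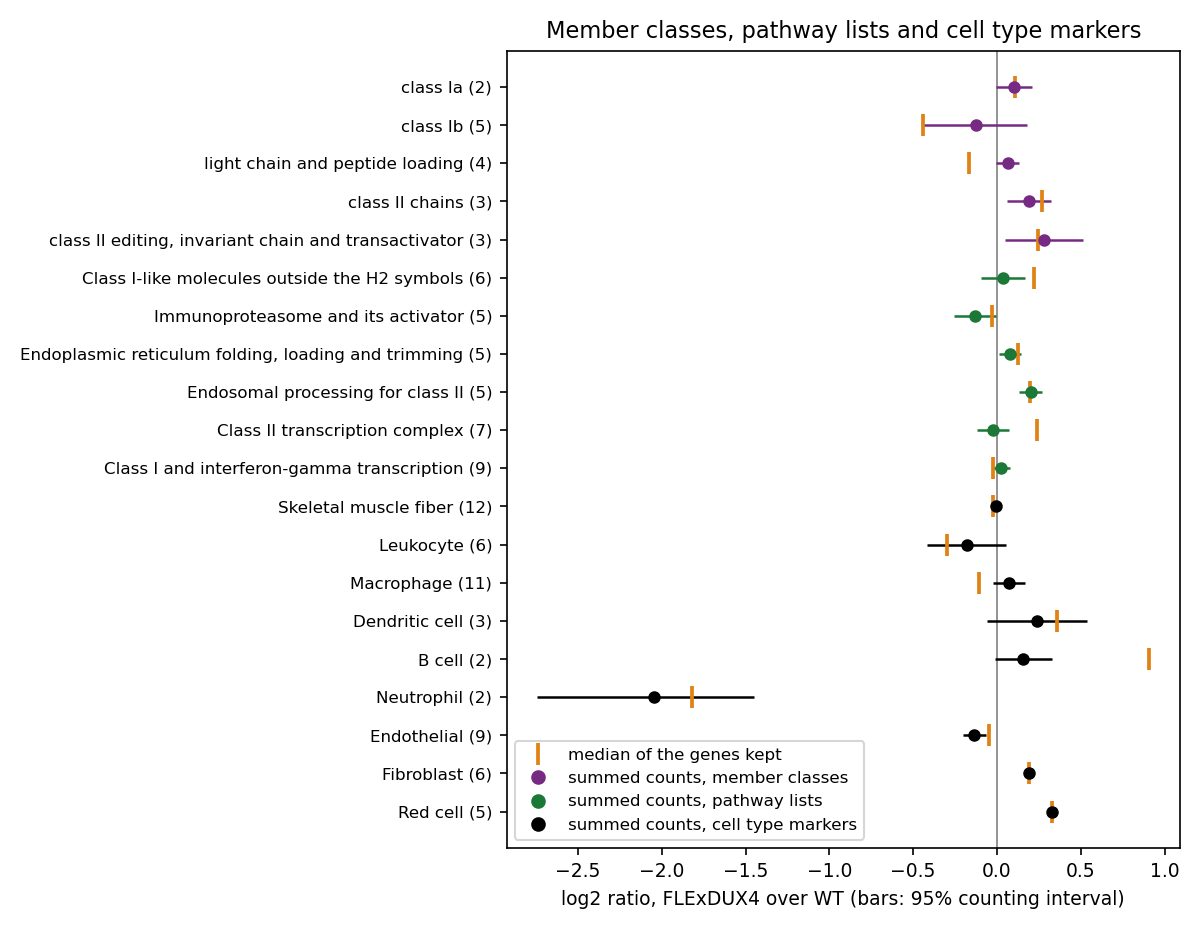
The log2 ratio of summed counts, FLExDUX4 over WT on the TMM scale, for the member classes (purple), the pathway lists (green) and the cell type markers (black), with 95% counting intervals, and the median over the genes kept (orange tick; number of genes kept in parentheses). The 5 member classes plotted lie between -0.13 and 0.28 (the other H2- symbols, with 10 counts against 1, are not plotted), and the neutrophil list stands apart at -2.04.

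Along chromosome 17, the members past the rule did not form a single cluster. Tap1 and H2-DMb1 lie with Psmb8 between H2-K1 and the class II chain genes H2-Ab1, H2-Aa and H2-Eb1, all of which did not pass. H2-T22 and H2-M3 lie farther along, in the class Ib region, and had opposite signs. The other genes between the outermost H2- symbols (H2-K2 and H2-M2), of which 73 were kept, had a median ratio of 0.11, and 16.4% of them passed the rule.

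**Figure D5:**
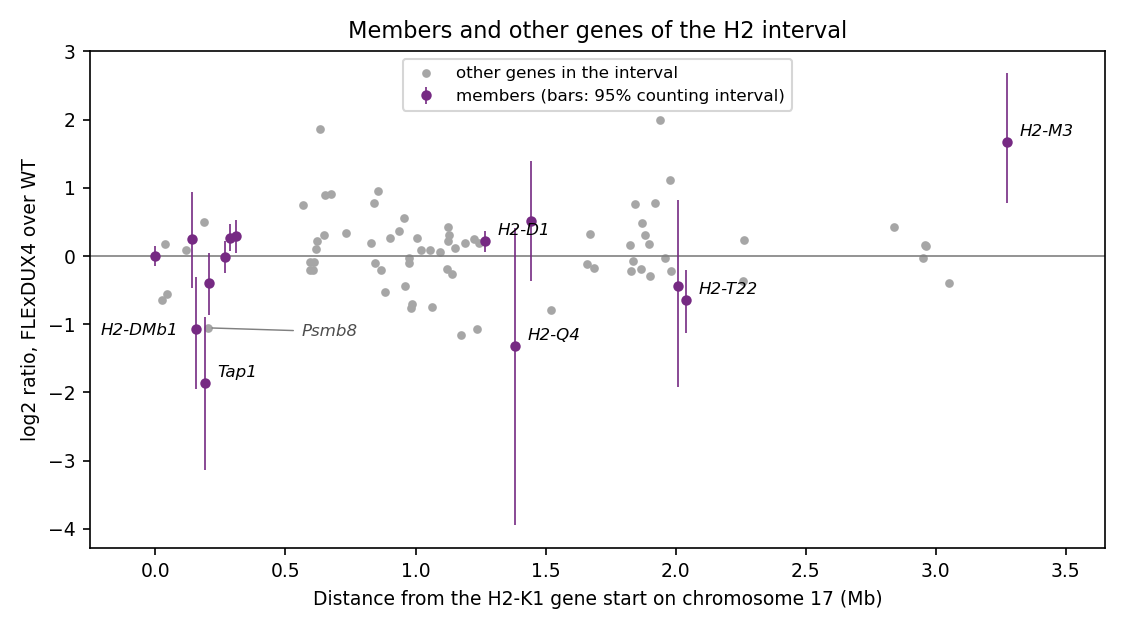
The log2 ratio of FLExDUX4 to WT for members (purple, with 95% counting intervals) and other genes (grey) between H2-K2 and H2-M2 by distance from the start of H2-K1 in Mb. Tapbp lies outside this interval and is not plotted. The other genes scatter around a median of 0.11, and Tap1, H2-DMb1 and Psmb8 lie below 0 within the first 0.5 Mb, beside class II chains near 0.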

How the data were processed

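RNA of 3 FLExDUX4 and 3 WT mice was sequenced with QuantSeq FWD. Per the study's methods, Cutadapt 1.16 trimmed the reads, STAR 2.5.3a aligned them to GRCm38 joined to spike-in sequences (ERCC, SIRV), and DESeq2 was the test. The submitters' processing notes also name FastQC 0.11.7 and featureCounts 1.6.2. The deposited values used are raw counts, which the authors summed per genotype without normalization. The table also holds the authors' comparison (fold changes and p-values, not used), and 6 columns of single samples whose names fit no label, left out of every step. The planned test per sample (edgeR) therefore was not run.

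The 99 spike-ins, with 220016 and 259913 counts, were left out of gene totals. The TMM scale came from edgeR 4.0.16 under R 4.3.3, with 13396 genes past filterByExpr. For log2 ratios and folds, 0.5 was added to each total before scaling. The 95% intervals (Clopper-Pearson, exact Poisson for CPM, Python 3.11.15, scipy 1.17.1) cover counting error only. Those of the ratios were tested on counts simulated with Poisson error alone, so that test says nothing about variation between mice. The floor was 3 counts per total. Positions are from GENCODE M21 (GRCm38), whose start equals the deposited one for 41 of 47 members.

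Members with at least 10 counts were named, as were pathway genes past the rule or highest in counts, at most 3 markers a list, and at most 6 neighbours past the rule with at least 100 counts. Others were named after their values were seen. The module, its rule on symbols and the lists were chosen with earlier results of these data known.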

Additional observations from a re-analysis of the deposited data

How the results depend on the processing

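RLE scaling and a pseudocount of 1 left all 37 results of each within their counting error or within 1.5 times the main count. The 4 members past the rule were 4 as well under upper-quartile scaling and gene totals, 5 on the spike-in scale (Tap2 lower too), 3 where each total needed at least 10 counts (without Tap1), 3 at 2-fold, 5 at a looser fold (with Cd74), and 8 without a filter (with H2-Q5 and H2-Ke6 higher, H2-T23 and H2-Q10 lower). Of the 14 members with under 10% of end windows shared, a choice made after seeing the data, 2 passed (H2-M3 and Tap1). The 5 pathway genes past the rule became 4 (without Tapbpl) under upper-quartile scaling, with gene totals and where each total needed at least 10 counts, 3 on the spike-in scale (Mr1 joined at -0.60), 2 at 2-fold and 6 at the looser fold (with Hfe). The share of all genes past the rule was taken for the main setting alone. The counts under other settings therefore only name the genes that change, and cannot be set against all genes.

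Spike-in scaling shifts every log2 ratio by -0.276. It gave -0.173 for class Ia, -0.402 for class Ib, -0.213 for light chain and loading, -0.084 for class II chains and 0.005 for class II editing. It gave -0.284 for muscle fiber, -0.457 for leukocyte, -0.204 for macrophage, -0.118 for B cell, -0.411 for endothelial, -0.083 for fibroblast and 0.051 for red cell markers. The muscle fiber list was -0.024 under upper-quartile scaling, -0.038 with gene totals, -0.017 without a filter and -0.022 where each total needed at least 10 counts, and the fibroblast list 0.163 with gene totals.

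No paired analysis was possible because the columns used are 1 total per genotype and carry no replicate number. Leaving out each replicate, DESeq2 and the replicate block were not run for the same reason. A single mouse can decide any ratio, and for members under 10 counts the depth gives bounds or wide intervals only.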

Other observations

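The genes that lie between the outermost H2- symbols on chromosome 17 were compared in the same way. Between H2-K2 and H2-M2, a span of 3.51 Mb that leaves out the stretch from Tapbp to H2-K2, the table holds 272 other genes, of which 73 were kept, 9 were higher, 3 were lower (16.4% past the rule, against 20.1% of all genes compared) and the median log2 ratio was 0.11. The genes past the rule with at least 100 counts and the largest ratios were mostly higher. Nelfe, a subunit of the negative elongation factor, had 72 counts in FLExDUX4 and 53 in WT with a ratio of 0.95. Tnxb, which encodes tenascin-X of the extracellular matrix, had 76 and 58 counts with a ratio of 0.90 (0.39 to 1.42). Atf6b, a factor of the unfolded protein response, had 114 and 88 counts with a ratio of 0.89 (0.48 to 1.31). Ppp1r10 had 166 and 138 counts with a ratio of 0.78 (0.45 to 1.12), and Dxo, an enzyme that removes faulty mRNA caps, 77 and 64 with a ratio of 0.78 (0.29 to 1.28). Psmb8 was the lower gene among the 6. Of the 4 pseudogene rows outside the module, H2-M6-ps had 4 and 6 counts and the others 0.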
